A study of Mus musculus with 41 samples.

Results

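The comparison of dusk with dawn on a high fat diet rested on 7 of the 41 arrays of a study of mouse epidermal stem cells, chosen by their titles: 4 arrays of high fat diet mice collected at ZT12 and 3 of high fat diet mice collected at ZT0. ZT is zeitgeber time, counted in hours from lights on, so ZT0 is dawn and ZT12 is dusk in the animal house. All mice were wild type C57B6/J females, 15 weeks old, that had eaten ad libitum for 7 weeks from the age of 8 weeks, either a high fat diet or its matched control diet. Control diet arrays of the same times, 3 at ZT12 and 4 at ZT0, were used to ask whether a difference also held on that diet. The mice killed on 1 day all belonged to 1 time point, so time point and collection day coincide and cannot be told apart in any difference below.

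The epidermis renews itself from stem cells of its basal layer and of the hair follicle, which divide and then supply the differentiated layers above. These cells carry a circadian clock, in which the BMAL1 protein, made from Arntl, pairs with CLOCK or NPAS2 and switches on genes of its own repressors, the PER and CRY proteins, and of the REV-ERB receptors that in turn silence Arntl. In mouse skin the clock is known to set DNA replication and mitochondrial metabolism to different times of day, and feeding is known to be one of the signals that reach peripheral clocks.

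Values are log2 expression from RMA, the authors' normalization, and a difference is always ZT12 minus ZT0 on that log2 scale, with its standard error (SE). A gene was called where its Benjamini-Hochberg adjusted p over the 17097 genes tested was below 0.05 in limma. Since the labels number the arrays but do not name a mouse for each, the p-values measure the spread between these arrays. The 4 high fat ZT12 arrays stood apart from all other arrays on the second principal component (16.5% of the variance), at 14.8 to 26.4, whereas the high fat ZT0 arrays lay between -2.35 and 9.54. Correlations between arrays were 0.988 to 0.992 within high fat ZT12, 0.993 to 0.994 within high fat ZT0 and 0.982 to 0.987 across the 2 times. Krt5 and Krt14, the keratins of basal epidermal cells, averaged 12.67 and 12.70 at ZT12, against 12.63 and 12.62 at ZT0. The keratins of differentiated layers were measured too, with Krt1 at 12.58 and Krt10 at 12.02 at ZT12, against 12.58 and 12.01 at ZT0. How the cells were isolated is not given in the sources used here. Because these are bulk RNA samples, fewer cells of a type and less RNA per cell cannot be told apart.

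In all, 2201 genes differed between ZT12 and ZT0 on the high fat diet, or 12.9% of the genes tested. Higher at ZT12 were 1422 genes (8.32%) and lower were 779 (4.56%). Most differences were small: the median size among the called genes was 0.43, 555 genes reached a 1.5-fold change and 93 a 2-fold change. Of those 93 genes, 38 were higher and 55 lower at ZT12. The count depended on single arrays, with 1216, 1552 and 1542 genes called without high fat ZT0 replicates 1, 2 and 3. Leaving out high fat ZT12 replicates 1 to 4 in turn gave 1640, 2152, 1680 and 2106. With only the 7 arrays in the fit 1130 genes were called, of which 990 were among the 2201. On the control diet 184 genes were higher at ZT12 (1.08% of those tested) and 263 lower (1.54%).

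Core clock genes gave the largest differences in both directions. Arntl fell the most of all genes, while Dbp, Tef and Nr1d2 rose the most. Promoters of 4 clock genes that moved, Ciart, Tef, Arntl and Nfil3, are shown here as examples that hold 1 of 2 short motifs of clock proteins. The Dbp and Nr1d2 windows held neither motif. The E-box (CACGTG) is the textbook binding motif of BMAL1 with its partner, and the ROR element (TAGGTCA) is that of the ROR and REV-ERB receptors. Windows run from 250 bases before to 50 bases after a RefSeq transcript start (GRCm38.p6), were read on both strands, and are printed 5′ to 3′ on the gene's strand with each match in capitals.
Ciart: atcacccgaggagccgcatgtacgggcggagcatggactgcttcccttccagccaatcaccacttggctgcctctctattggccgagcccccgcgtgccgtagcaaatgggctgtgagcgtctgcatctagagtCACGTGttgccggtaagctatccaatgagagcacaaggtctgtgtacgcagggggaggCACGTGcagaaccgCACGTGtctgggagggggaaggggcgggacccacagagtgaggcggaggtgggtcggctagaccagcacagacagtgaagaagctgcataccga
Tef: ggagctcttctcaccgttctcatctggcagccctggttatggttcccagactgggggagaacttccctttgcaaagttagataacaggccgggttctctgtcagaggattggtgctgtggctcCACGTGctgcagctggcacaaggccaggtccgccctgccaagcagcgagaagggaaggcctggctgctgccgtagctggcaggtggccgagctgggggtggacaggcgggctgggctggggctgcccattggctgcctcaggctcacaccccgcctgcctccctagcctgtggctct
Arntl: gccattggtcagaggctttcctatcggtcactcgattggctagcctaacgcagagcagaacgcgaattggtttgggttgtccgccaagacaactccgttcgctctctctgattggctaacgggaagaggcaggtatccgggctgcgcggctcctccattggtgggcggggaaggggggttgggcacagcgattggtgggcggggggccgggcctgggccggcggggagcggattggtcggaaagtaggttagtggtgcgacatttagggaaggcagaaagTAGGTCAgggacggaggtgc
Nfil3: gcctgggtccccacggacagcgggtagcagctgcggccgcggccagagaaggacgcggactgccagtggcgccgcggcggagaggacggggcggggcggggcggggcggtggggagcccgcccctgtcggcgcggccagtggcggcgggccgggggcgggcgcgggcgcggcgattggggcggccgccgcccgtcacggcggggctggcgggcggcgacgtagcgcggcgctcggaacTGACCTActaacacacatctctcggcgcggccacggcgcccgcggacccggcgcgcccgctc

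Ciart encodes CHRONO, a repressor of the BMAL1 complex, and its window (chr3:95882179-95882478, minus strand) held 3 E-boxes, starting at -116, -58 and -44 from the start. Tef encodes a transcription factor of the D-box family, and the printed 1 of its 2 windows (chr15:81802423-81802722, plus strand) held an E-box at -127, and the other held one at -138. Of 2 overlapping Arntl windows, the one printed (chr7:113207261-113207560, plus strand) held a ROR element at 31 and the other, which ends upstream of that match, held none. The Nfil3 window (chr13:52980990-52981289, minus strand) held a ROR element at -12. Among 13605 tested genes with a window, 10.2% held an E-box and 2.60% a ROR element. An E-box was found in 5 of 16 clock genes with a window, namely Ciart, Tef, Per1, Cry1 and Bhlhe41. A ROR element was found in 2 of the 16, Arntl and Nfil3, which are the 2 clock genes with the largest falls. The D-box (TTATGTAA) and the CRE (TGACGTCA) were searched as well and matched 1 of the 16 each. A match is only a run of letters in this window and does not show binding.

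On the activating side of the clock, Arntl had values of 5.56, 6.35, 5.05 and 6.35 at ZT12, against 8.67, 8.44 and 8.59 at ZT0. The 2 groups lay far apart, and the ZT12 arrays spread over more than 1 log2 unit. Arntl was thus 6.67-fold lower at ZT12 (difference -2.74 ± 0.31, SE, adjusted p = 3.83e-07, limma), and a second, dimmer probe set gave -0.92 ± 0.14. The control diet difference was -2.23, and the test between the diets gave -0.51 ± 0.43 (adjusted p = 0.524). Npas2, which encodes the partner that can stand in for CLOCK, had 8.14, 8.41, 8.34 and 8.34 at ZT12, against 8.72, 8.85 and 8.71 at ZT0. Its groups did not overlap and it fell by 0.45 ± 0.08 (adjusted p = 0.000237), with -2.40 ± 0.26 in its other probe set. The fall was larger on the control diet (-0.89, difference between diets 0.44 ± 0.11, adjusted p = 0.0147, and 0.271 with its probe sets averaged). Clock itself (-0.17 ± 0.18) and the receptor genes Rora (-0.16 ± 0.08) and Rorb (0.05 ± 0.06) did not pass. For Rora the diets differed, by -0.40 ± 0.11 (adjusted p = 0.0238, and 0.0792 without control ZT12 replicate 1).

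Among the repressors, 5 of 9 measured genes rose, against 8.32% of all genes, and none fell. Nr1d2, which encodes REV-ERBβ, had 9.25, 9.53, 9.40 and 9.71 at ZT12, against 7.50, 7.60 and 7.66 at ZT0. Every dusk array exceeded every dawn array by more than 1.5 log2 units, and the gene was 3.71-fold higher (1.89 ± 0.16, adjusted p = 1.44e-09). The Ciart values were 8.81, 8.74, 8.97 and 8.84 at ZT12, against 7.64, 7.63 and 7.65 at ZT0, a difference of 1.20 ± 0.11 (adjusted p = 5.35e-09) with very little spread at dawn. The PER proteins are the negative limb of the clock. Per3 rose by 1.26 ± 0.14 (adjusted p = 5.53e-07), with 8.99, 8.44, 8.81 and 9.18 at ZT12, against 7.55, 7.65 and 7.57 at ZT0. Per2 rose by 1.25 ± 0.14 (adjusted p = 4.41e-07), with 7.81, 7.63, 7.82 and 8.01 at ZT12, against 6.46, 6.71 and 6.53 at ZT0. Neither gene's groups overlapped. Cry2, a cryptochrome gene, rose by 0.72 ± 0.12 (adjusted p = 0.000194), with 9.29, 9.16, 9.0 and 9.03 at ZT12, against 8.25, 8.57 and 8.38 at ZT0.

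Per1 was separated but not called: its values were 10.05, 10.32, 9.95 and 10.01 at ZT12, against 9.30, 9.78 and 9.69 at ZT0 (0.49 ± 0.22, adjusted p = 0.144). Cry1 (-0.34 ± 0.19) and the genes of the E-box repressors DEC1 and DEC2, Bhlhe40 (-0.06 ± 0.19) and Bhlhe41 (0.01 ± 0.09), did not pass. The repressors had smaller differences on the high fat than on the control diet in 4 cases. Per1 had 0.49 on the high fat and 1.49 on the control diet (-1.0 ± 0.31 between diets, adjusted p = 0.0467). The values were 1.25 and 2.01 for Per2 (-0.76 ± 0.20, adjusted p = 0.0186), and 0.72 and 1.29 for Cry2 (-0.57 ± 0.17, adjusted p = 0.0415). For Bhlhe40 they were -0.06 and 0.92 (-0.97 ± 0.26, adjusted p = 0.0211). When single arrays were left out, between 0 and 4 repressors differed between the diets, with 0 without control ZT12 replicate 3, 1 without high fat ZT0 replicate 2 and 2 without high fat ZT12 replicate 3 or 4, high fat ZT0 replicate 3, control ZT12 replicate 1 or 2, or control ZT0 replicate 1 or 2. On the control diet 7 of the 9 repressors rose.

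The output arm of the clock consists of the D-box activators DBP, TEF and HLF and their competitor NFIL3. Dbp had 9.31, 8.63, 9.04 and 9.49 at ZT12, against 6.91, 6.97 and 7.05 at ZT0, and was 4.41-fold higher (2.14 ± 0.18, adjusted p = 1.44e-09). Tef had 10.23, 10.10, 10.06 and 10.09 at ZT12, against 7.92, 8.36 and 8.16 at ZT0, and was 3.92-fold higher (1.97 ± 0.12, adjusted p = 9.59e-13). Both genes were separated by a wide gap, and Tef had the smallest adjusted p of the genes named here. Hlf rose less, by 0.41 ± 0.09 (adjusted p = 0.00172), and by 0.93 ± 0.16 in a second probe set.

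Nfil3 went the other way. Its values were 6.43, 6.06, 6.89 and 6.12 at ZT12, against 8.31, 8.16 and 8.47 at ZT0, so that it was 3.83-fold lower at dusk (-1.94 ± 0.20, adjusted p = 8.94e-08). The Nfil3 difference on the control diet was -0.18 (adjusted p = 0.760), and the diets differed by -1.76 ± 0.28 (adjusted p = 0.00043). Over the day of the high fat diet, Nfil3 means were 8.31, 8.60, 7.43, 6.37, 8.57 and 8.82 from ZT0 to ZT20 in steps of 4 hours, with the lowest mean at ZT12. The Arntl means in the same order were 8.57, 9.15, 6.97, 5.83, 7.68 and 9.09, also lowest at ZT12. Dbp, Tef, Nr1d2 and Per3 had their highest high fat means at ZT12 and their lowest at ZT0. Per2 was lowest at ZT0 and highest at ZT16, and Clock, Rorb, Cry1 and Bhlhe40 had neither extreme at ZT12 or ZT0.

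**Figure D1:**
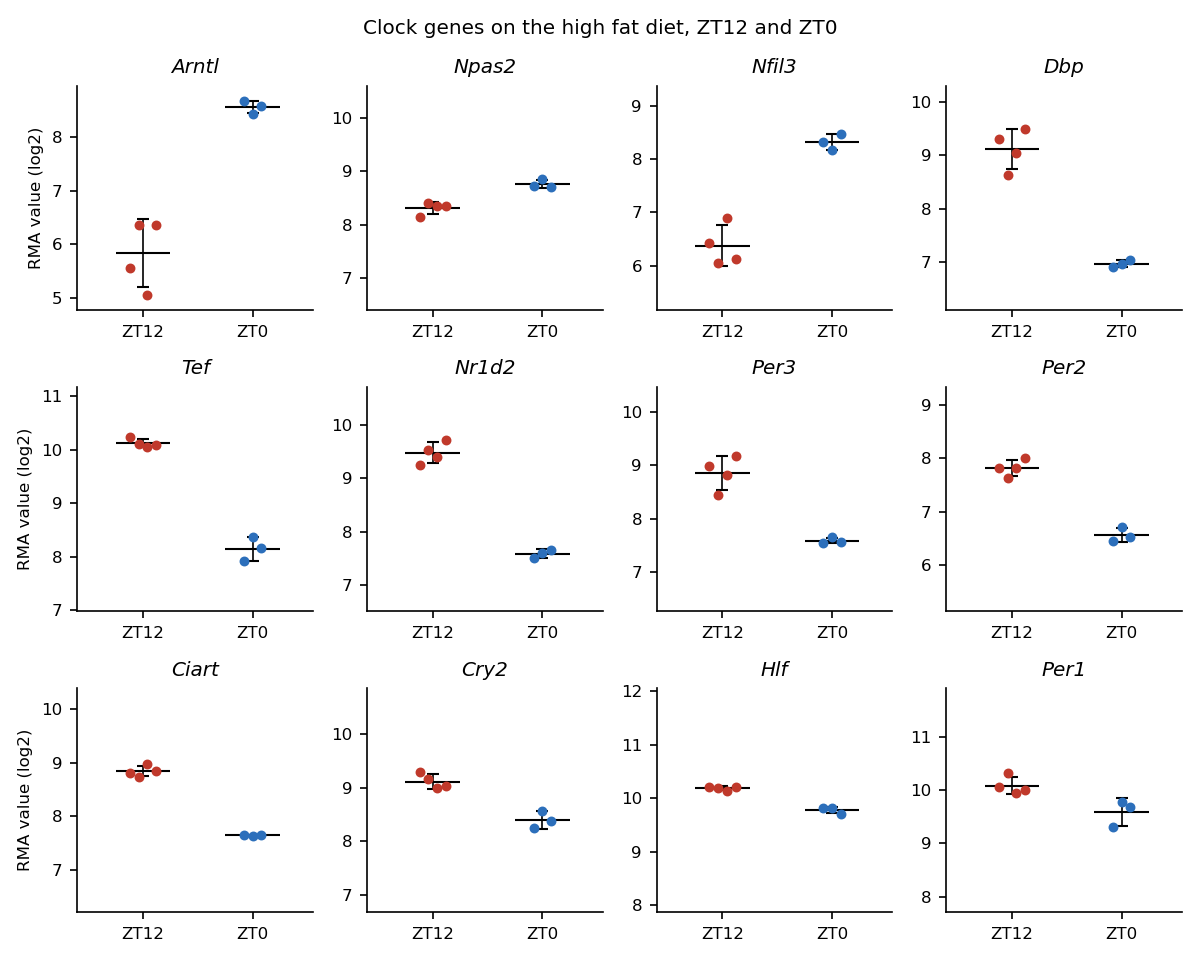
RMA values (log2) of 12 clock genes on the high fat diet, 1 point per array, ZT12 (4 arrays, red) left of ZT0 (3 arrays, blue), with the mean and SD; every panel spans the same number of log2 units. Arntl, Npas2 and Nfil3 lie lower at ZT12, the other 9 genes lie higher, and no panel shows overlap between the times, although Per1 was not called (adjusted p = 0.144).

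DNA replication genes were high and mitosis genes low at dusk. Of 22 measured S phase genes, 17 rose and none fell, with a median difference of 0.72, whereas 8.32% of all genes rose and the median over all genes was 0.03. Of 21 mitosis genes, 18 fell and none rose, with a median of -0.94, against 4.56% of all genes. No gene of either list passed the limma test between the diets (6 of the 43 had an unadjusted p below 0.05), and the control diet medians were 0.61 and -1.05, with 13 S phase genes higher and 19 mitosis genes lower at ZT12 there.

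The promoters of 2 genes of each list are printed as examples that hold a motif known from genes of that cell cycle phase. The E2F site is the motif of the E2F factors that switch on replication genes, here searched as TTTCCCGC, TTTGGCGC, TTTCGCGC and TTTGCCGC. The CHR (TTTGAA) is the element known from promoters of late cell cycle genes.
Mcm5: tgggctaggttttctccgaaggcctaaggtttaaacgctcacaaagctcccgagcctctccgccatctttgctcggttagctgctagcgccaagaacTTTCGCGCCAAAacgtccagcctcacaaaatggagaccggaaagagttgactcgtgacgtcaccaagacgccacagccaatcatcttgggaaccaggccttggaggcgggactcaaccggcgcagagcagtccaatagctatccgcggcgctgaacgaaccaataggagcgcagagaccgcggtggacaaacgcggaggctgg
Cdc6: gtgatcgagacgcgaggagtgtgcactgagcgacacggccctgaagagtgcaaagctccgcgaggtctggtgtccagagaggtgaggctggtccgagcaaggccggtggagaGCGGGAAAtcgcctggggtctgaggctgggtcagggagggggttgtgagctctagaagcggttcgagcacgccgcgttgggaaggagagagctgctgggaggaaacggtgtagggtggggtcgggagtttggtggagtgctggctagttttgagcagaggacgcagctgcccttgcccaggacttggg
Top2a: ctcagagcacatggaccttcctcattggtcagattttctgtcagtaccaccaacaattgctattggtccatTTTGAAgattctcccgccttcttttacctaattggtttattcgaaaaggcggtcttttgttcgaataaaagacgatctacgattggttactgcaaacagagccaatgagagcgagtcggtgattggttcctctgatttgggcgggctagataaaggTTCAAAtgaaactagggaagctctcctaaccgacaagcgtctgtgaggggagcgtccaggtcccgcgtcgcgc
Ccnb2: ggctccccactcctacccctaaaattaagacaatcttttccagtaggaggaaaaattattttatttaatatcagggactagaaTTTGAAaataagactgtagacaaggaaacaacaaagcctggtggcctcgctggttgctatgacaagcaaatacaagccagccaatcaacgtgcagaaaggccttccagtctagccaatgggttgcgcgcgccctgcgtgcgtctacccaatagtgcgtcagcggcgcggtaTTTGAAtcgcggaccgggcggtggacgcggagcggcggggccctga

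Mcm5 (chr8:75109259-75109558, plus strand) held 2 E2F matches at -153 and -149 that overlap each other, and Cdc6 (chr11:98907901-98908200, plus strand) held 1 at -138. Top2a (chr11:99024140-99024439, minus strand) held CHR matches at -179 and -23, and Ccnb2 (chr9:70421505-70421804, minus strand) at -167 and 5. An E2F match was found in 8 of 19 S phase genes with a window, 1 of 17 mitosis genes and 3.79% of the tested genes. A CHR match was found in 13 of 17 mitosis genes, 3 of 19 S phase genes and 15.6% of the tested genes. The letters TTTGAA are short and frequent, and the counts describe these windows alone.

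The replication helicase and its loaders led the rises. Mcm5, a subunit of the MCM helicase, had 10.83, 10.22, 10.51 and 10.42 at ZT12, against 8.51, 8.59 and 8.92 at ZT0 (3.54-fold higher, 1.82 ± 0.25, adjusted p = 1.21e-05). Mcm2, another subunit, had 9.07, 8.87, 8.87 and 8.54 at ZT12, against 6.90, 7.04 and 7.44 at ZT0 (3.27-fold, 1.71 ± 0.21, adjusted p = 1.23e-06). A second and much dimmer Mcm5 probe set gave 0.14 ± 0.07, and a second Mcm2 probe set, at a mean of 7.36, gave 0.67. Gins2, part of the GINS complex that completes the helicase, had 9.41, 9.38, 8.92 and 9.17 at ZT12, against 7.43, 7.32 and 7.67 at ZT0 (1.75 ± 0.19, adjusted p = 3.83e-07). None of these groups overlapped.

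The loading factors followed, with Cdt1 at 9.97, 9.58, 9.63 and 9.16 at ZT12, against 8.08, 8.17 and 8.62 at ZT0 (1.29 ± 0.21, adjusted p = 8.14e-05). Cdc6, shown above for its promoter, had 5.42, 5.23, 5.33 and 5.14 at ZT12, against 4.59, 4.79 and 4.75 at ZT0 (0.57 ± 0.10, adjusted p = 0.000238). A pair of further genes of DNA synthesis was among the 15 largest rises. Ung encodes the uracil DNA glycosylase and had 9.67, 9.55, 9.89 and 9.62 at ZT12, against 8.15, 7.87 and 8.13 at ZT0 (1.63 ± 0.19, adjusted p = 8.98e-07). Wdhd1, a replication fork protein, rose by 1.35 ± 0.25 (adjusted p = 0.000385). Rrm2, a subunit of ribonucleotide reductase, did not pass (0.10 ± 0.16, adjusted p = 0.729), and its groups overlapped. Rrm2 and 4 other S phase genes that did not pass are shown as open points in the plot of division genes.

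Genes of entry into the cycle gave a mixed picture. Against 8.32% of all genes higher and 4.56% lower, 6 of 16 were higher and 4 lower. The number lower was 1 without high fat ZT0 replicate 1 and 2 without high fat ZT12 replicate 1 or 3 or high fat ZT0 replicate 3. Ccnd2, a D-type cyclin, had 12.44, 12.18, 12.42 and 12.19 at ZT12, against 11.35, 11.46 and 11.41 at ZT0 (0.90 ± 0.12, adjusted p = 3.71e-06). Ccnd1, its close relative, rose by 0.73 ± 0.14 (adjusted p = 0.000564), and E2f1, the founding E2F factor, by 0.67 ± 0.10 (adjusted p = 4.77e-05). All 3 genes were separated, and on the control diet their differences were 0.76, 0.66 and 0.59.

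Genes of the mitosis list fell by up to 3.44-fold. Cit, the citron kinase of the cleavage furrow, is not in that list and fell by more, with 5.81, 6.39, 5.89 and 6.07 at ZT12, against 8.07, 8.19 and 7.58 at ZT0 (3.75-fold lower, -1.91 ± 0.26, adjusted p = 7.75e-06). Its other probe set fell by 0.56 ± 0.18. Aurkb, the kinase of the chromosomal passenger complex, had 7.20, 6.63, 6.74 and 6.27 at ZT12, against 8.45, 8.40 and 8.63 at ZT0 (-1.78 ± 0.26, adjusted p = 3.04e-05). Separation was complete for both genes. Nusap1, a spindle protein, had 5.52, 5.71, 5.24 and 5.30 at ZT12, against 6.70, 7.08 and 7.67 at ZT0 (-1.71 ± 0.22, adjusted p = 4.74e-06).

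The proliferation marker Mki67 had 8.23, 7.88, 8.07 and 8.19 at ZT12, against 9.05, 9.27 and 9.29 at ZT0 (-1.11 ± 0.14, adjusted p = 3.13e-06). Top2a, which untangles chromosomes, had 7.47, 7.21, 7.07 and 7.25 at ZT12, against 8.52, 8.64 and 8.61 at ZT0 (-1.34 ± 0.15, adjusted p = 3.83e-07). Its 2 other, dimmer probe sets gave 0.11 and -0.05, so the fall of Top2a rests on the brightest one. Birc5, which encodes survivin, fell by 1.32 ± 0.16 (adjusted p = 9.68e-07) and the cyclin gene Ccnb2 by 0.64 ± 0.17 (adjusted p = 0.009, and 0.0633 without high fat ZT0 replicate 2). Plk1, the polo kinase, did not pass (-0.11 ± 0.14, adjusted p = 0.673), and its groups overlapped.

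Further genes of spindle and cytokinesis among the 15 largest falls were Gas2l3 (-1.69), the kinetochore gene Cenpf (-1.64), the CDK phosphatase gene Cdkn3 (-1.56), the centralspindlin gene Racgap1 (-1.50), the mitotic kinase gene Pbk (-1.48), the spindle pole gene Aspm (-1.44) and the anillin gene Anln (-1.43). Their control diet differences ran from -2.24 for Cenpf to -1.25 for Pbk, and none of the 7 passed the test between the diets. Cdkn3 was higher in high fat ZT12 replicate 1 (6.77) than in the other ZT12 arrays (5.72 to 5.84). Ttc9, a gene of the tetratricopeptide repeat family, was among the 15 as well (-1.71, and -1.84 on the control diet).

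**Figure D2:**
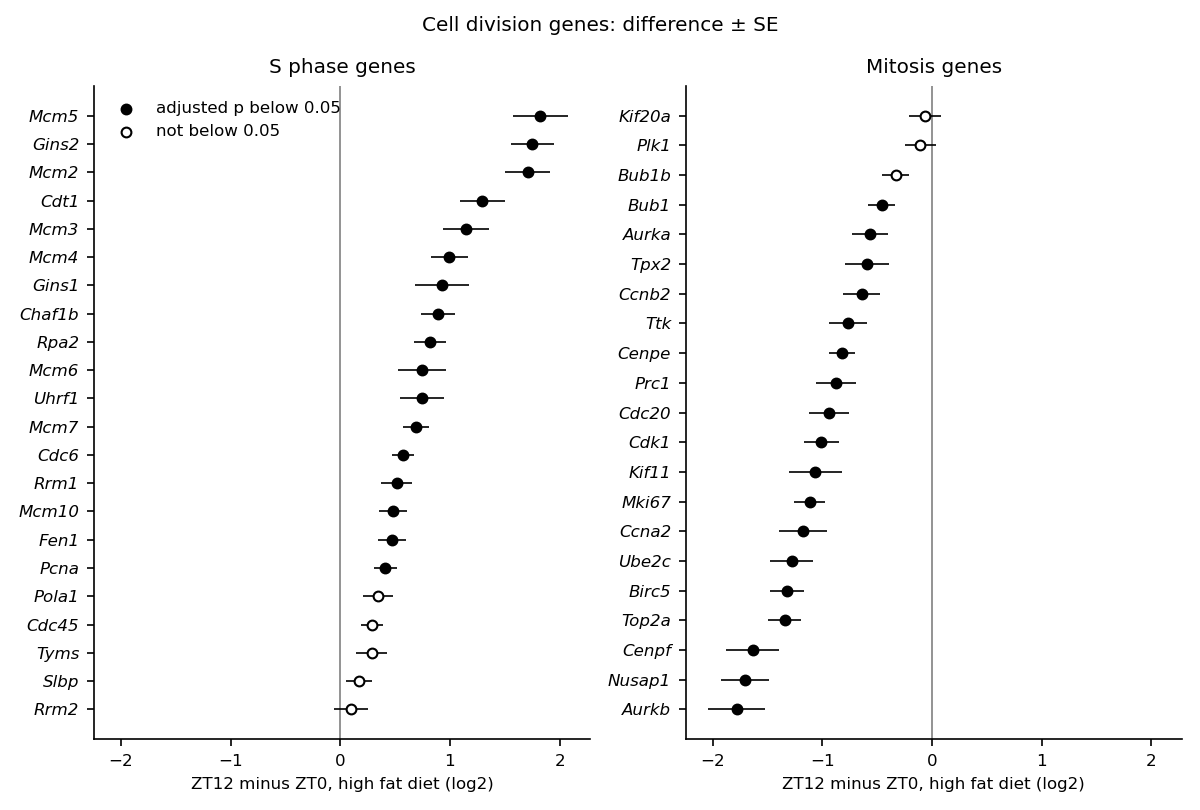
Difference ZT12 minus ZT0 (log2) with its SE on the high fat diet for 22 S phase genes (left) and 21 mitosis genes (right), filled where the adjusted p was below 0.05. S phase genes run from 0.10 (Rrm2) to 1.82 (Mcm5), and mitosis genes from -1.78 (Aurkb) to -0.06 (Kif20a).

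Many genes of mitochondrial respiration and of ribosomes rose at dusk on the high fat diet, by small amounts, whereas no gene of the 4 lists described next rose on the control diet (2 of their 207 genes were higher there at an unadjusted p below 0.05 in limma). In complex I, the NADH dehydrogenase that feeds electrons into the respiratory chain, 15 of 32 genes rose, against 8.32% of all genes. None fell, all 32 differences were positive, and the median was 0.36 on the high fat and -0.17 on the control diet. The difference itself differed between diets for 20 of the 32, against 7.27% of all genes. Without high fat ZT0 replicate 1 that number was 10, and without control ZT12 replicate 1 it was 13.

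Ndufs4, a complex I subunit needed for its assembly and activity, had 10.15, 10.10, 10.08 and 10.02 at ZT12, against 9.43, 9.54 and 9.63 at ZT0 (1.46-fold higher, 0.55 ± 0.09, adjusted p = 6.07e-05). Its control diet difference was -0.000507, and the diets differed by 0.55 ± 0.12 (adjusted p = 0.00515). Ndufs6, an accessory subunit, had 10.77, 10.59, 10.78 and 10.51 at ZT12, against 10.12, 10.10 and 10.21 at ZT0 (0.52 ± 0.09, adjusted p = 0.000158). Groups were separate for both, and also for Ndufa3 (0.53 ± 0.11) and Ndufa2 (0.51 ± 0.11), further accessory subunits. The diets differed by 0.74 ± 0.12 for Ndufs6, 0.67 ± 0.15 for Ndufa3 and 0.77 ± 0.15 for Ndufa2.

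The remaining respiratory complexes, from succinate dehydrogenase to the ATP synthase, gave 17 of 37 genes higher, against 8.32% of all genes, and none lower. Medians were 0.22 on the high fat and -0.15 on the control diet. The number that rose was 7 with only the 7 arrays in the fit, 6 without high fat ZT12 replicate 1 and 4 without high fat ZT0 replicate 1. Between diets 19 differed, a number that was 4 without high fat ZT0 replicate 1, and 12 or 10 when control ZT12 replicate 1 or replicate 2 was left out. Atp5l, a membrane subunit of the ATP synthase, had 11.27, 11.02, 11.07 and 11.20 at ZT12, against 10.51, 10.80 and 10.84 at ZT0 (0.42 ± 0.08, adjusted p = 0.000645). Atp5k, a neighbouring subunit, rose by 0.53 ± 0.13 (adjusted p = 0.00469), Uqcrc1 of complex III by 0.32 ± 0.07 (adjusted p = 0.0035) and Cox4i1 of cytochrome oxidase by 0.26 ± 0.06 (adjusted p = 0.00469, and 0.0874 without high fat ZT0 replicate 1). Their groups were separate. Sdha, the catalytic subunit of succinate dehydrogenase, showed overlapping groups and 0.04 ± 0.08.

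Of these 4 lists, the cytosolic ribosome had the largest share of called genes. Of 67 ribosomal protein genes 52 rose, against 8.32% of all genes, and none fell, with a median of 0.23. The diets differed for 50, with a control diet median of -0.07. With only the 7 arrays in the fit 19 rose, and 34 rose without high fat ZT0 replicate 1. Rpl13, a protein of the large subunit, had 10.81, 10.63, 10.83 and 10.74 at ZT12, against 10.07, 10.13 and 10.26 at ZT0 (0.60 ± 0.08, adjusted p = 4.77e-06). Rpl23a had 11.95, 11.76, 11.91 and 11.92 at ZT12, against 11.45, 11.51 and 11.59 at ZT0 (0.37 ± 0.05, adjusted p = 2.61e-05). Both genes were apart in every array. Rpl11, which also binds the p53 inhibitor MDM2, rose by 0.34 ± 0.05 (adjusted p = 3.75e-05, and 0.104 for the mean of its probe sets).

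Rpl14 moved most, with 8.46, 8.20, 8.71 and 8.33 at ZT12, against 6.92, 7.30 and 7.63 at ZT0 (2.20-fold, 1.14 ± 0.18, adjusted p = 0.000104). Its control diet difference was -0.62, and the diets differed by 1.76 ± 0.26 (adjusted p = 0.000371). Ribosomal protein genes have many processed pseudogene copies with near identical sequence, so probes of this list may also have read related transcripts.

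Ribosomes inside mitochondria are a separate set of proteins that make the few mitochondrially encoded subunits of the chain. Of their 71 genes, 23 rose, against 8.32% of all genes, and none fell (median 0.33, and -0.11 on the control diet). Between the diets 21 differed. The number that rose was 12 with only the 7 arrays in the fit, 14 without high fat ZT12 replicate 1, 15 without high fat ZT12 replicate 3 and 9 without high fat ZT0 replicate 1. The number that differed was 8 without high fat ZT0 replicate 1, 13 without high fat ZT0 replicate 2, and 10 or 11 when control ZT12 replicate 1 or replicate 2 was left out. Mrpl20, of the large subunit, had 8.27, 8.33, 8.30 and 8.34 at ZT12, against 7.27, 7.61 and 7.91 at ZT0 (0.71 ± 0.13, adjusted p = 0.000567). The dusk arrays were nearly equal and the dawn arrays were spread. Mrpl17 rose by 0.62 ± 0.11, Mrpl12 by 0.57 ± 0.12 and Mrpl52 by 0.53 ± 0.10, each with separate groups.

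**Figure D3:**
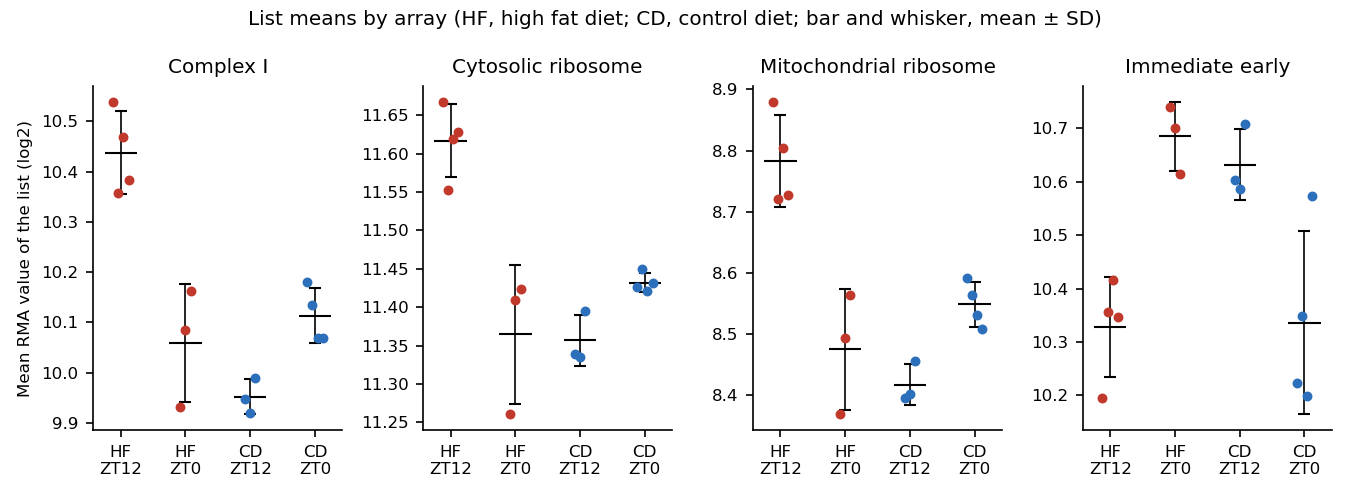
Mean RMA value (log2) over the genes of 4 lists, 1 point per array, with the mean and SD of each group, for the high fat diet (HF) and the control diet (CD) at ZT12 and ZT0. Complex I means were 10.36 to 10.54 at high fat ZT12, against 9.93 to 10.16 at high fat ZT0, and 9.92 to 9.99 at control ZT12, against 10.07 to 10.18 at control ZT0; the vertical axes do not start at 0.

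The list means show the pattern array by array. For the cytosolic ribosome they were 11.55 to 11.67 at high fat ZT12, against 11.26 to 11.42 at high fat ZT0. On the control diet they were 11.34 to 11.39 at ZT12, against 11.42 to 11.45 at ZT0. High fat ZT0 replicate 1 had the lowest mean of its group for complex I and both kinds of ribosome, and even the highest array of high fat ZT0 lay below the lowest of high fat ZT12 there. For the immediate early list the order was the opposite, with every high fat ZT12 array below every high fat ZT0 array. Medians of the tested genes moved slightly the same way, at 6.92 to 6.98 in high fat ZT12 arrays, against 6.91 to 6.93 in high fat ZT0 arrays. With each array's median over the tested genes subtracted, 56.4% of the called genes were higher, against 64.6% without it, and 1208 and 934 genes were higher and lower.

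The proteasome, which degrades tagged proteins, had 8 of 37 genes higher and 1 lower, against 8.32% and 4.56% of all genes. The list median was 0.18. The number that rose was 5 with only the 7 arrays in the fit, 4 without high fat ZT0 replicate 1 and 5 without high fat ZT0 replicate 2. Psmd8, a lid subunit, had 11.08, 11.06, 10.99 and 10.92 at ZT12, against 10.48, 10.32 and 10.55 at ZT0 (0.56 ± 0.08, adjusted p = 1.04e-05). Psmc3 of the ATPase ring rose by 0.52 ± 0.11, and Psmb3 and the immunoproteasome gene Psmb9 by 0.36 ± 0.09 and 0.28 ± 0.06.

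Fat metabolism was the process nearest to the diet. In fatty acid oxidation 5 of 17 genes rose and 2 fell, against 8.32% and 4.56% of all genes. The list median was 0.27 on the high fat and -0.07 on the control diet. Without high fat ZT0 replicate 1 the number that rose was 3. Eci1, an isomerase for unsaturated fatty acids, had 8.69, 8.42, 8.59 and 8.48 at ZT12, against 7.56, 8.04 and 7.99 at ZT0 (1.60-fold higher, 0.68 ± 0.11, adjusted p = 0.000129). Acaa2, the thiolase of the last step, had 11.33, 11.19, 11.03 and 11.18 at ZT12, against 10.47, 10.63 and 10.73 at ZT0 (0.57 ± 0.10, adjusted p = 0.000218). Groups were separate for both. Eci2 rose by 0.67 ± 0.16 (adjusted p = 0.00441, and 0.0667 without high fat ZT0 replicate 1) and the peroxisomal enzyme gene Ehhadh by 0.50 ± 0.11, the last with overlapping arrays.

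The fifth rise was the dehydrogenase gene Hadh (0.29 ± 0.09, adjusted p = 0.0303), and the 2 falls were the acyl-CoA dehydrogenase genes Acadl (-0.29 ± 0.08, adjusted p = 0.0183) and Acads (-0.19 ± 0.06, adjusted p = 0.0321). These 3 were named after their values were seen, to complete the count. Leaving out single arrays ended all 3 calls, with adjusted p up to 0.182 for Hadh (without high fat ZT0 replicate 1), 0.139 for Acadl and 0.126 for Acads (both without high fat ZT0 replicate 2). Cpt1a, which encodes the rate-limiting carnitine palmitoyltransferase, had 9.32, 9.59, 9.85 and 9.52 at ZT12, against 9.50, 9.35 and 9.05 at ZT0. Those groups overlapped (0.27 ± 0.13, adjusted p = 0.168). None of 14 PPAR target genes passed in limma, and 2 had an unadjusted p below 0.05. Scp2, a sterol and fatty acyl carrier, was the gene with the second smallest adjusted p between the diets. It had 9.25, 9.50, 9.32 and 9.36 at ZT12, against 8.55, 8.74 and 8.87 at ZT0 (0.64 ± 0.08, adjusted p = 1.18e-06), and on the control diet its difference was -0.29 (0.93 ± 0.11 between diets, adjusted p = 8.91e-06).

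Few genes of lipid synthesis or glycolysis passed, where 8.32% of all genes rose and 4.56% fell. Of 19 cholesterol synthesis genes only Msmo1, a sterol oxidase gene, passed (-0.74 ± 0.23, adjusted p = 0.0308), with 6.22, 6.39, 5.95 and 6.37 at ZT12, against 7.60, 6.47 and 6.86 at ZT0. The Msmo1 call was lost under 7 alternatives, with adjusted p = 0.301 without high fat ZT0 replicate 1. Lss, the lanosterol synthase gene, missed the threshold (0.59 ± 0.20, adjusted p = 0.0525), as did the feedback regulator gene Insig1 (-0.57 ± 0.24, adjusted p = 0.113). Of 12 fatty acid synthesis genes only Me1, malic enzyme, passed (-0.46 ± 0.15, adjusted p = 0.0372), while its other probe set gave 0.01 and adjusted p was 0.186 without high fat ZT0 replicate 1. The desaturase gene Scd1 gave -0.27 ± 0.10 (adjusted p = 0.0658). In glycolysis the phosphofructokinase gene Pfkp fell by 0.29 ± 0.07 (adjusted p = 0.00413), the pyruvate kinase gene Pkm rose by 0.18 ± 0.06 (adjusted p = 0.0372, and 0.146 without high fat ZT0 replicate 1) and Gapdh gave 0.10 ± 0.05 (adjusted p = 0.15).

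Immediate early genes were lower at dusk on the high fat diet. These are genes that respond within minutes to growth factors, calcium or stress. Of 23 measured, 8 fell, against 4.56% of all genes, and none rose. The median was -0.25 on the high fat and 0.29 on the control diet, and 13 differed between the diets, against 7.27% of all genes. The number that fell was 5 without high fat ZT12 replicate 1, without high fat ZT0 replicate 1 or without high fat ZT0 replicate 2. Nr4a2, an orphan nuclear receptor gene, had 8.23, 8.46, 8.31 and 8.47 at ZT12, against 9.73, 9.82 and 9.62 at ZT0 (2.56-fold lower, -1.35 ± 0.16, adjusted p = 1.02e-06). On the control diet it rose by 0.67, and it had the smallest adjusted p of all genes between the diets (-2.03 ± 0.23, adjusted p = 7.45e-06). Its other probe sets gave -2.45, -1.60, 0.05 and 0.20.

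The related receptor gene Nr4a3 had 9.21, 9.44, 9.16 and 9.43 at ZT12, against 10.80, 10.64 and 10.13 at ZT0 (-1.21 ± 0.25, adjusted p = 0.00134). Egr2, a zinc finger factor, had 10.76, 11.25, 11.32 and 11.20 at ZT12, against 12.10, 11.81 and 11.81 at ZT0 (-0.78 ± 0.12, adjusted p = 6.61e-05). Arrays were separate for both. Egr1 fell by 0.25 ± 0.06 (adjusted p = 0.00252). Fos (-0.07 ± 0.05) and the phosphatase gene Dusp1 (0.01 ± 0.06), both classic members, did not pass. Differences between the diets were -1.78 ± 0.35 for Nr4a3, -1.07 ± 0.17 for Egr2 and -0.32 ± 0.08 for Egr1.

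Few inflammatory or hormone-responsive genes passed. In the NF-kB and prostaglandin list only 6 of 21 differences were positive. List means were 7.10 to 7.26 at ZT12, against 7.28 to 7.30 at ZT0, lower in every dusk array. Of the 21 genes none fell and 2 rose, a share near the 8.32% of all genes. They were Nfkbia, which encodes the inhibitor IκBα (0.42 ± 0.08, adjusted p = 0.000359), and the cytokine gene Il1a (0.19 ± 0.05, adjusted p = 0.0124, and 0.0582 without high fat ZT0 replicate 3). Il1a was dim, with means of 4.79 at ZT12 and 4.6 at ZT0. Ptgs2, the gene of cyclooxygenase-2, had 5.71, 6.39, 6.03 and 6.24 at ZT12, against 6.98, 7.39 and 7.23 at ZT0. These groups did not overlap but the fit, which pools the spread over all groups, gave adjusted p = 0.113 (-1.10 ± 0.46). High fat SDs of Ptgs2 from ZT0 to ZT20 were 0.21, 0.98, 0.73, 0.29, 0.78 and 0.61. The control diet difference of Ptgs2 was 1.95, and the diets differed by -3.05 ± 0.65 (adjusted p = 0.0045). Tnfaip3, whose product A20 ends NF-kB signals, gave -0.52 ± 0.18 on the high fat (adjusted p = 0.0515) and 1.00 on the control diet, with -1.51 ± 0.25 between them (adjusted p = 0.0006).

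Of 10 genes induced by glucocorticoids, the hormones that peak around dusk in mice, 3 rose when all probe sets of a gene were averaged. With 1 probe set per gene only Tsc22d3 passed, near the 8.32% of all genes. It encodes GILZ and had 9.48, 9.26, 9.40 and 8.78 at ZT12, against 7.94, 7.68 and 7.83 at ZT0 (2.66-fold higher, 1.41 ± 0.21, adjusted p = 4.77e-05), with 1.33 on the control diet. Fkbp5, a chaperone of the receptor, had 7.30, 8.47, 8.21 and 7.21 at ZT12, against 7.35, 6.67 and 6.96 at ZT0, so its arrays overlapped (0.80 ± 0.30, adjusted p = 0.0752). Errfi1, an inhibitor of the EGF receptor, gave -0.75 ± 0.27 (adjusted p = 0.063) and differed between the diets by -1.43 ± 0.38 (adjusted p = 0.0189).

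Genes of protein folding and of p53 showed both directions. In the endoplasmic reticulum stress list 5 of 22 genes fell and 1 rose, against 4.56% and 8.32% of all genes. The number that fell was 3 without high fat ZT12 replicate 1 or high fat ZT0 replicate 1. It was 1 without high fat ZT0 replicate 2 and 2 without high fat ZT0 replicate 3. Hspa5, the chaperone BiP of the endoplasmic reticulum, had 8.30, 8.36, 7.79 and 8.14 at ZT12, against 9.38, 9.21 and 9.17 at ZT0 (2.15-fold lower, -1.10 ± 0.16, adjusted p = 1.66e-05). The diets differed for Hspa5 by -0.97 ± 0.22 (adjusted p = 0.00664). Pdia3, a disulfide isomerase gene, fell by 0.37 ± 0.10 and Sel1l, of the degradation machinery, by 0.32 ± 0.09, while Herpud1 rose by 0.34 ± 0.10. Pdia3 was dim, with means of 5.08 at ZT12 and 5.44 at ZT0. Other Sel1l probe sets gave -0.10, -0.71, 0.08 and -0.10, the 0.08 from the next brightest. Adjusted p was 0.0136 for Pdia3, 0.018 for Sel1l and 0.0203 for Herpud1, but 0.0818 for Pdia3 without high fat ZT0 replicate 3, 0.0872 for Sel1l without high fat ZT0 replicate 2 and 0.13 for Herpud1 without high fat ZT0 replicate 1. In the heat shock list 2 of 16 genes fell and 1 rose, against 4.56% and 8.32% of all genes. Its median was -0.04 and its list means overlapped between the times. The cytosolic chaperone genes Dnaja1 (-0.50 ± 0.08) and Hsph1 (-0.48 ± 0.13) fell and the mitochondrial co-chaperonin gene Hspe1 rose (0.33 ± 0.07). The Hsph1 call was lost without high fat ZT0 replicate 1 (adjusted p = 0.107).

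Of 16 p53 targets and growth arrest genes, 6 fell and 3 rose, against 4.56% and 8.32% of all genes. Pmaip1, which encodes the cell death protein NOXA, had 8.64, 8.89, 8.89 and 8.98 at ZT12, against 10.35, 10.53 and 10.49 at ZT0 (3.05-fold lower, -1.61 ± 0.31, adjusted p = 0.000676). There was a gap of more than 1 log2 unit, and the diets differed by -2.29 ± 0.44 (adjusted p = 0.00178). Mdm2, the ubiquitin ligase that restrains p53, fell by 0.69 ± 0.13 (adjusted p = 0.00047). Cdkn1a, which encodes the cell cycle inhibitor p21, fell by 0.28 ± 0.05 (adjusted p = 0.000385). The nuclease gene Aen rose by 0.50 ± 0.09 (adjusted p = 0.000645), although its 2 dimmer probe sets gave -0.15 and -0.16 and the mean of all 3 had adjusted p = 0.728. The number that rose was 1 when any of high fat ZT12 replicates 3 and 4 or the 3 high fat ZT0 arrays was left out.

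**Figure D4:**
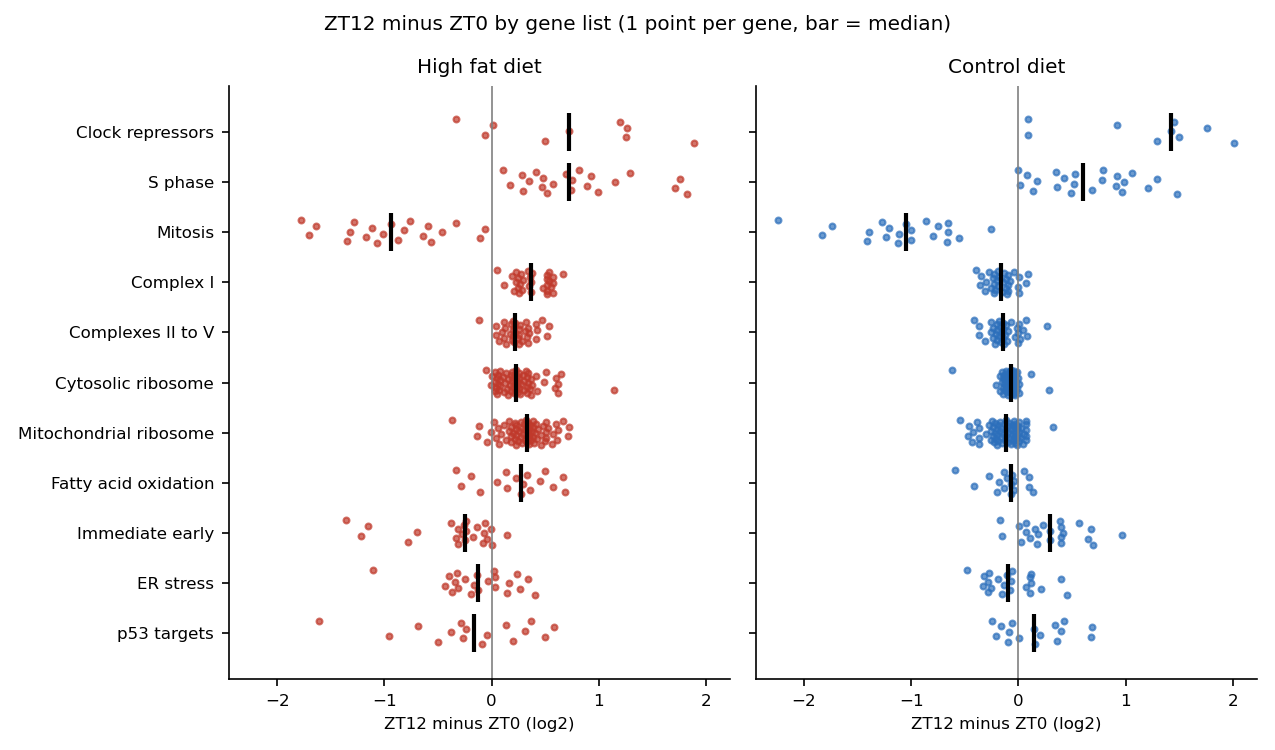
Difference ZT12 minus ZT0 (log2) for each measured gene of 11 lists, 1 point per gene and a bar at the list median, on the high fat diet (left) and the control diet (right). S phase and mitosis medians lie on the same side of 0 in both diets (0.72 and -0.94 on the high fat, 0.61 and -1.05 on the control diet), whereas the complex I, ribosome and immediate early medians lie on opposite sides.

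Some markers of the bulge, the stem cell niche of the hair follicle, passed. Among 11 genes of the hair follicle bulge 4 rose and 1 fell, against 8.32% and 4.56% of all genes, and 7 differences were positive. The number that rose was 2 without high fat ZT12 replicate 3 or without high fat ZT0 replicate 2. List means overlapped, at 7.64 to 7.98 at ZT12, against 7.39 to 7.75 at ZT0. Lgr5, a receptor that marks cycling follicle stem cells, had 7.10, 6.94, 6.72 and 6.05 at ZT12, against 5.24, 4.93 and 5.66 at ZT0 (2.68-fold higher, 1.42 ± 0.25, adjusted p = 0.000288), and the diets differed by 1.70 ± 0.36. A second, dimmer Lgr5 probe set gave 0.02 ± 0.08. Cd34, a surface marker of the mouse bulge, had 5.76, 6.05, 6.07 and 5.74 at ZT12, against 5.07, 4.81 and 5.38 at ZT0 (0.82 ± 0.20, adjusted p = 0.00706). The groups of neither gene overlapped, and Cd34 had adjusted p = 0.0575 without high fat ZT0 replicate 2. Gas1 rose by 0.51 ± 0.13 (adjusted p = 0.00956, and 0.0504 without high fat ZT12 replicate 3). In the basal keratinocyte list 1 of 13 genes rose, near the 8.32% of all genes, namely Krt15, a keratin of basal and bulge cells (0.38 ± 0.07). Nfatc1, a factor that keeps bulge cells quiescent, fell, with 9.01, 8.82, 9.51 and 9.03 at ZT12, against 9.81, 9.65 and 9.94 at ZT0 (-0.71 ± 0.15, adjusted p = 0.002).

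Few differentiation markers passed. Of 16 suprabasal genes 1 rose and 1 fell, near the 8.32% and 4.56% of all genes. Tgm3, a transglutaminase of the cornified envelope, rose by 0.92 ± 0.18 (adjusted p = 0.000991) and Dmkn fell by 0.22 ± 0.06 (adjusted p = 0.00863, and 0.0543 without high fat ZT0 replicate 1). Abca12, the lipid transporter of granular cells, was among the 15 largest falls, with 6.42, 7.37, 5.94 and 7.38 at ZT12, against 8.36, 7.75 and 8.42 at ZT0. The dusk arrays were spread but stayed below the dawn arrays (-1.40 ± 0.33, adjusted p = 0.00428), and the control diet gave 0.90 (-2.29 ± 0.46 between diets, adjusted p = 0.00296).

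Some markers of immune cells were higher at dusk on the high fat diet. Of 14 leukocyte and Langerhans cell genes 4 rose, against 8.32% of all genes, and 13 had a positive difference. The mean of the list was 6.67 to 6.85 at ZT12, against 6.35 to 6.52 at ZT0. On the control diet 1 of the 14 genes rose, against 1.08% of all genes, and the list median was -0.19. The 4 that rose on the high fat diet included the antigen presentation genes H2-Aa (0.65 ± 0.11) and H2-Ab1 (0.76 ± 0.21). The others were the T cell receptor gene Cd3e (0.91 ± 0.18) and the signalling adaptor gene Tyrobp (0.77 ± 0.18). The other H2-Aa probe sets gave -1.19 and 0.68, and the mean of all 3 had adjusted p = 0.867. With only the 7 arrays in the fit, or without high fat ZT0 replicate 2, 2 rose, and without that array H2-Ab1 had adjusted p = 0.122 and Tyrobp 0.0507. Of 8 melanocyte genes Pmel (-0.80 ± 0.18) and Sox10 (-0.21 ± 0.06) fell, against 4.56% of all genes. The list means were 5.86 to 6.00 at ZT12, against 6.02 to 6.07 at ZT0. Adjusted p was 0.00313 for Pmel and 0.0145 for Sox10, and 0.0936 for Sox10 without high fat ZT0 replicate 2. The hair shaft keratin gene Krt33a rose (0.43 ± 0.14, adjusted p = 0.0405), 1 of 10 in its list, near the 8.32% of all genes. It had adjusted p = 0.151 without high fat ZT0 replicate 1. None of 10 fibroblast, 8 endothelial, 3 adipocyte, 7 muscle, 4 sebocyte, 6 Merkel cell, 3 erythrocyte or 2 Schwann cell genes passed in limma, and 5 of these 43 had an unadjusted p below 0.05. Several of these 43 were dim, with high fat ZT12 means of 4.55 for Adipoq, 4.96 for Col1a2 and 5.33 for Vwf. Others were bright, such as Krt79 at 11. The immune, melanocyte and hair shaft shifts accompany the ribosomal, respiratory and immediate early differences above. Their part in those results was not tested.

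Comparing the 2 diets gene by gene, the difference between dusk and dawn itself differed for 1243 genes (7.27%), with 849 more positive and 394 more negative on the high fat diet. The count was 647 without high fat ZT0 replicate 1, and 756 or 684 when control ZT12 replicate 1 or replicate 2 was left out. With each array's median over the tested genes subtracted it was 1118, and 55.3% instead of 68.3% were more positive on the high fat diet. Of 66 genes named in the text that differed between the diets, 42 did so under every alternative that tested them. The filter on dim genes left some named genes out. In 30 of the 17097 genes the differences passed in both diets with opposite signs. The design text does not settle whether the diets shared their collection days, so the day may also differ between them.

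Apart from Nr4a2, Scp2 and Rpl14, the smallest adjusted p-values between diets belonged to genes of varied function. S100a4, a calcium-binding protein gene, had 7.17, 6.71, 6.88 and 6.42 at ZT12, against 5.48, 5.45 and 6.11 at ZT0 (1.12 ± 0.17), and -0.57 on the control diet (1.69 ± 0.25 between diets, adjusted p = 0.000371). Tiparp, a target gene of the aryl hydrocarbon receptor, had 7.84, 7.86, 8.04 and 8.40 at ZT12, against 8.72, 8.71 and 8.73 at ZT0 (-0.69 ± 0.13), and 0.52 on the control diet (-1.21 ± 0.18 between diets, adjusted p = 0.000371). Both were separated. Naglu, a lysosomal enzyme gene, gave 0.65 ± 0.12 on the high fat and -0.48 on the control diet, and Mesp1, a mesoderm factor gene, 0.39 ± 0.06 and -0.19. The values were 0.70 and -0.33 for Tmem238, and 1.28 and 0.05 for Ebpl, a relative of the emopamil-binding sterol isomerase. H2-Aa, described with the immune markers, had 0.65 and -0.37. Among the 15 largest rises, Zc3h14, a poly(A)-binding zinc finger gene, gave 1.53 ± 0.33 and -0.26, and Zfp87 gave 1.26 ± 0.26 and -0.13.

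**Figure D5:**
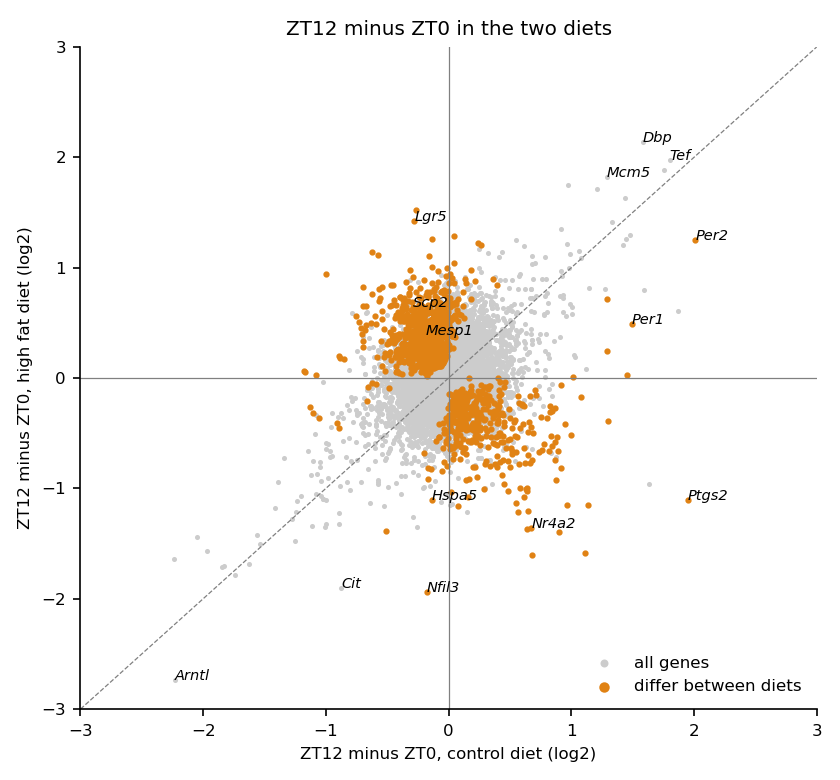
Difference ZT12 minus ZT0 (log2) of each of the 17097 genes on the high fat diet (vertical) against the control diet (horizontal), with the 1243 genes that differed between the diets in orange and the line of equality dashed. Arntl, Dbp, Tef and Mcm5 lie near the line, and Nfil3, Nr4a2, Ptgs2 and Lgr5 lie far from it.

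Across the 6 times of the high fat diet, ZT12 was mostly an extreme for these genes. Of the 1422 genes called higher, 1171 had their highest mean at ZT12 and 545 their lowest at ZT0. Of the 779 called lower, 491 had their lowest mean at ZT12 and 404 their highest at ZT0. These positions share the arrays that chose the genes, so they are a description. Ndufs4 means from ZT0 to ZT20 were 9.53, 9.37, 9.79, 10.1, 9.49 and 9.37, and those of Rpl13 were 10.2, 10.3, 10.4, 10.8, 10.2 and 10.1, a single high point at dusk. Top2a means were 8.59, 7.64, 7.01, 7.25, 7.82 and 8.42, low from ZT8 to ZT12 and highest at dawn.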

How the data were processed

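The values are log2 expression per probe set of a mouse microarray, as the authors deposited them, normalized with RMA per the submitters' processing notes; no version or batch adjustment is stated there, and how cells were isolated is not given in the sources used here. Of 45141 probe sets, 28898 were annotated to 1 gene, and the probe set with the highest mean stood for each of 17097 genes. Symbols were updated through Entrez identifiers, and 17055 genes were found in the RefSeq table. limma 3.58.1 in R 4.3.3 (lmFit, eBayes) fitted a mean for each of the 12 groups over 41 arrays, with Benjamini-Hochberg adjustment; it was tested on simulated data. Files were read with Python 3.11.15, pandas 2.3.3 and the R package data.table (1.17.8), and plots drawn with matplotlib 3.10.9. Array medians over all probe sets were 6.41 to 6.44, and no 2 arrays were identical. The number of arrays limits the precision.

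Named genes were the 15 largest rises and falls with separate arrays, all clock genes, up to 4 genes with the smallest adjusted p per list plus textbook members, and the 10 smallest adjusted p-values between the diets, passing over predicted genes. Hadh, Acadl, Acads and Kif20a, and the promoters printed, were chosen after their values were seen. Members and lists were chosen with earlier results of these data known. Alternatives were other sets of arrays, the mean of probe sets, a filter on dim genes, median scaling, a trended robust prior, array weights, a replicate block and leaving out arrays. Replicate numbers gave no sign of pairing the arrays.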

Additional observations from a re-analysis of the deposited data

Results flagged for a closer look

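Dixon's test for 1 outlying value was applied to the 290 sets of 4 arrays that the 145 genes named in the text gave at high fat ZT12 and control ZT0, and 11 sets had 1 array far from the other 3. Chance alone marks about 1 set in 20. At high fat ZT12, Cdkn3 was 6.77 in replicate 1, against 5.72 to 5.84 in the other arrays, and Ttc9 was 6.07 in replicate 4, against 6.67 to 6.70. Psmc3 stood at 9.36 in replicate 3, against 9.19 in each of the others, Psmb9 at 10.07 in replicate 2, against 10.18 to 10.19, and Ehhadh at 5.39 in replicate 2, against 5.80 to 5.87. Cdkn1a was 11.54 in replicate 3, against 11.44 in each of the others, and H2-Ab1 was 8.43 in replicate 4, with the others between 8.99 and 9.01.

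At control ZT0, Mcm2 was 7.91 in replicate 1, against 6.86 to 6.97 in the other arrays. Rpl11 was 11.71 in replicate 4, against 11.76 in each of the others, and Dusp1 was 12.66 in replicate 4, against 12.43 to 12.46. Aldh1a1, which encodes a retinaldehyde dehydrogenase, was 5.65 in replicate 3, against 5.24 to 5.27.

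The difference between dusk and dawn itself differed between the diets for 66 of the named genes (limma, adjusted p below 0.05), with 42 more positive and 24 more negative on the high fat diet. In 54 of them the 2 diets had differences of opposite sign. The values that follow are the high fat difference minus the control difference in log2 units. Among clock genes they were 0.44 for Npas2, -0.40 for Rora, -1.0 for Per1, -0.76 for Per2, -0.57 for Cry2, -0.97 for Bhlhe40 and -1.76 for Nfil3. All but Npas2 were negative.

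Respiratory genes were all positive, at 0.55 for Ndufs4, 0.74 for Ndufs6, 0.67 for Ndufa3, 0.77 for Ndufa2, 0.66 for Atp5l, 0.90 for Atp5k and 0.33 for Cox4i1. So were the ribosomal genes, at 0.64 for Rpl13, 0.47 for Rpl23a, 0.45 for Rpl11, 1.76 for Rpl14, 0.55 for Mrpl17, 1.08 for Mrpl20, 0.56 for Mrpl52 and 0.68 for Mrpl12. The proteasome genes gave 0.52 for Psmd8, 0.82 for Psmc3, 0.31 for Psmb9 and 0.54 for Psmb3. Enzyme genes of metabolism gave 0.75 for Eci1, 0.52 for Acaa2, 0.54 for Ehhadh, 0.28 for Pkm and 0.36 for Prdx1.

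Signalling and stress genes were mostly negative, at -2.03 for Nr4a2, -1.78 for Nr4a3, -1.07 for Egr2, -0.32 for Egr1, -3.05 for Ptgs2, -1.51 for Tnfaip3, -1.43 for Errfi1 and -1.21 for Tiparp. The folding and p53 genes gave -0.97 for Hspa5, -0.53 for Sel1l, -0.46 for Dnaja1, 0.40 for Hspe1, -0.83 for Mdm2 and -2.29 for Pmaip1. Tgfbr1, a TGF-β receptor gene, gave -1.09 and the ligand gene Wnt5a 1.34.

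Among cell markers the values were 1.70 for Lgr5, -1.10 for Nfatc1, 1.13 for Cd34, 0.32 for Krt15, 1.01 for H2-Aa, 1.09 for Tyrobp, 1.39 for H2-Ab1, -1.14 for Pmel, -0.32 for Sox10 and 0.70 for Krt33a. The remaining genes gave 1.79 for Zc3h14, 1.24 for Ebpl, 1.39 for Zfp87, -2.29 for Abca12, 0.93 for Scp2, 0.58 for Mesp1, 1.69 for S100a4, 1.03 for Tmem238 and 1.13 for Naglu. Under the alternatives tried, 24 of the 66 lost the call at least once.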

How the results depend on the processing

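Under the alternatives to the 2201 genes called, no named gene that had passed changed its direction. With only the 7 arrays of the comparison in the fit, 1130 genes differed, 677 higher and 453 lower, and 990 were among the 2201. Leaving out 1 array gave 1216 to 2152 genes, 742 to 1422 higher and 474 to 739 lower, with the lowest counts without high fat ZT0 replicate 1. Between the diets, leaving out 1 array gave 647 to 1266 genes, with 647 without high fat ZT0 replicate 1, and 756 and 684 without control ZT12 replicates 1 and 2. The cause was not tested. The other settings stayed within 1.5 times of these counts (1777 to 2452, and 1118 to 1822 between the diets, the highest with array weights). With the replicate number of the labels as a replicate block, 2077 genes were called, and 1239 between the diets. Same-numbered arrays of ZT12 and ZT0 deviated from their group means with correlations of -0.26, -0.16 and -0.09, so the numbers do not pair the arrays. With each array's median over the tested genes subtracted, 1208 genes were higher and 934 lower (56.4% higher, against 64.6%). Of the 118 named genes called on the high fat diet, 84 passed under every alternative that tested them and 34 failed under at least 1. The filter on dim genes left some named genes out, so their calls were not tested under it. For H2-Aa, Aen, Rpl11 and Bmp7 the call was lost when all probe sets of the gene were averaged. The number of arrays limits the precision.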

Other observations

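Antioxidant and growth factor genes, not described above, moved gene by gene. Of 17 antioxidant genes 4 rose and 1 fell at dusk on the high fat diet, against 8.32% and 4.56% of all genes. Sod2, the mitochondrial superoxide dismutase gene, had 10.68, 10.62, 10.69 and 10.74 at ZT12, against 9.89, 10.12 and 10.14 at ZT0 (0.63 ± 0.09, SE, adjusted p = 3.04e-05, limma). Txnrd1, the cytosolic thioredoxin reductase gene, had 8.86, 9.11, 8.85 and 8.46 at ZT12, against 9.92, 9.85 and 10.08 at ZT0 (-1.12 ± 0.24, adjusted p = 0.002). Neither gene's groups overlapped, and the differences had opposite signs. The peroxiredoxin gene Prdx1 (0.25 ± 0.07, adjusted p = 0.0114) and the glutathione peroxidase gene Gpx1 (0.19 ± 0.05, adjusted p = 0.0136) rose less, and without high fat ZT0 replicate 1 their adjusted p-values were 0.0872 and 0.0821. Without that array 1 of the 17 genes rose, and without high fat ZT12 replicate 1 it was 2.

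Of 15 TGF-β and BMP genes 2 rose and 2 fell, where 8.32% of all genes rose and 4.56% fell, so these are values of single genes. The ligand gene Bmp4 had 9.34, 9.38, 9.49 and 9.31 at ZT12, against 8.57, 8.90 and 8.61 at ZT0 (0.69 ± 0.16, adjusted p = 0.00428), with every dusk array above every dawn array. Bmp7 rose by 0.51 ± 0.10 (adjusted p = 0.001), but by 0.25 and 0.02 in its other probe sets. The decoy receptor gene Bambi fell by 0.37 ± 0.11 (adjusted p = 0.0285, and 0.232 without high fat ZT0 replicate 2), and the receptor gene Tgfbr1 by 0.53 ± 0.18 (adjusted p = 0.0497, lost under 11 alternatives). Of 11 retinoid genes only Aldh1a1 passed (-0.77 ± 0.23, adjusted p = 0.0233, and 0.133 without high fat ZT0 replicate 3). None of 13 WNT genes passed in limma, although 5 had an unadjusted p below 0.05. Wnt5a had 8.34, 7.90, 8.04 and 7.80 at ZT12, against 7.01, 7.43 and 7.67 at ZT0 (0.65 ± 0.22, adjusted p = 0.0519), and -0.70 on the control diet. None of 7 stress keratin and alarmin genes passed in limma, and 0 had an unadjusted p below 0.05. The cold-inducible genes Cirbp (0.26 ± 0.13) and Rbm3 (0.05 ± 0.08) did not pass, and 1 of the 2 had an unadjusted p below 0.05.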
